A study of Mus musculus with 4 samples.

Results

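The neural lineage genes described here are 9 genes that mark the path from neural progenitor to neuron: Ncam1, Map2, Nes, Sox1, Sox11, Pax6, Zic1, Gsx2 and Hes5. They were chosen by symbol, and all 9 were among the 55353 symbols of the count table. RNA was sequenced, after depletion of ribosomal RNA, from E14 cells, a mouse embryonic stem cell line that grows without feeder cells. In 2 libraries the cells had Ssrp1 targeted by Cas9 and a guide RNA (genotype label Ssrp1 KO), and the other 2 libraries are labelled wild type, here called controls. Both groups carry the strain label 12910la and were grown in serum with LIF, on gelatin. The treatment text also describes wild-type cells given the pSuper puro vector and selected with puromycin, and does not say whether these controls are such cells. It does not say either whether the knockout libraries came from 1 clone or several, or whether the libraries of a group were separate cultures, so the p-values measure only how these samples vary, and part of that may be technical.

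Neural genes of this kind are mostly silent or low in embryonic stem cells. When signals that hold the undifferentiated state are withdrawn, cells become neuroectoderm: SOX factors of the B1 group, such as Sox1, and paired-box, zinc-finger and homeobox factors set up and pattern neural progenitors, Notch signalling through Hes genes keeps progenitors from differentiating, and adhesion and cytoskeletal genes such as Ncam1 and Map2 are used in the neurons that follow. Ssrp1 encodes a subunit of FACT, which opens and rebuilds nucleosomes as polymerases pass.

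Ssrp1 itself had levels of 305.0 and 327.0 CPM in the libraries labelled knockout, against 282.0 and 305.0 CPM in controls. CPM are read counts scaled to a common library size, with TMM factors. Its log2 fold change was 0.11 ± 0.06 (SE) with an adjusted p of 0.226 by edgeR, so the transcript was not lower. With scaling by library size alone its adjusted p was 0.0311, and without knockout replicate 1 it was 0.0108, both in the upward direction. A small Cas9 lesion need not remove the transcript, and gene-level counts cannot reveal it, so this level does not check the genotype, and the samples are called the libraries labelled knockout. Total counts lay between 22611434 and 25344190 per library. Ribosomal-RNA-like transcripts of Gm26917 and Gm42418 took 6.3% and 4.64% of the counts in the libraries labelled knockout, against 9.72% and 10.3% in controls, and their part in the results was not tested; leaving them out of the library sizes changed no call on the 9 genes.

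Setting the libraries labelled knockout against controls asks how these genes stand after Ssrp1 was targeted. The neural lineage genes did not move as a block: Gsx2, Ncam1, Sox1 and Map2 fell by 3.09, 2.40, 1.98 and 0.97 on the log2 scale, while Nes rose by 1.00. Sox11 and Pax6 were not called, and Hes5 and Zic1 had too few counts to be tested. Of the 7 genes that passed the filter on low counts, 1 was called higher and 4 lower by edgeR's quasi-likelihood test at an adjusted p under 0.05. Gsx2 passed that filter through its control counts alone. Over all 17482 genes tested, 16.5% were called higher and 17.2% lower. The median log2 fold change was -0.97 over the 7 genes and 0.0035 over all genes tested. With no filter on low counts all 9 genes were fitted, and their median was -0.4. In that fit Hes5 and Zic1 rest on 16 counts and 1 count over the 4 libraries. The groups did not overlap for all 7 tested genes, 2 above and 5 below the controls, a relation that held for 66.6% of all genes tested, 33.3% above and 33.3% below. The cells were sequenced in bulk, so fewer cells with a transcript and less of it per cell cannot be told apart.

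The promoters of the genes that were called are shown here, since 4 genes fell and 1 rose in the same comparison and the windows let their sequences be set side by side. RefSeq windows on GRCm38.p6, each 300 bases long, were matched for 8 of the 9 genes (2 windows for Pax6); Ncam1 had no entry. Each runs from 250 bases before to 50 bases after the RefSeq start site, 5′ to 3′ on the gene's strand. Capitals mark GGGCGG, the GC box bound by Sp1-type factors, and TATAAA, the TATA box, on either strand.
Map2: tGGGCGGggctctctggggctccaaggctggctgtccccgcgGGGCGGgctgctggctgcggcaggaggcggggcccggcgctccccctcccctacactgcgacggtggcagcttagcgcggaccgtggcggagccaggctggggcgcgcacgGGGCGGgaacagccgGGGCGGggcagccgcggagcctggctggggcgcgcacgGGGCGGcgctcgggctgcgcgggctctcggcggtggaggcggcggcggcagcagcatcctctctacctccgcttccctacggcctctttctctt
Sox1: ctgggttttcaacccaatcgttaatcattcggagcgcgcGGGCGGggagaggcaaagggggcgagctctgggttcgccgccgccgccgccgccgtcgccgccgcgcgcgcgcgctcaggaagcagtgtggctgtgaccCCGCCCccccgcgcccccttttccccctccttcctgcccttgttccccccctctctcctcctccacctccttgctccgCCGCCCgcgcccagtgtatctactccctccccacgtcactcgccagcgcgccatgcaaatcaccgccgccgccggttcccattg
Gsx2: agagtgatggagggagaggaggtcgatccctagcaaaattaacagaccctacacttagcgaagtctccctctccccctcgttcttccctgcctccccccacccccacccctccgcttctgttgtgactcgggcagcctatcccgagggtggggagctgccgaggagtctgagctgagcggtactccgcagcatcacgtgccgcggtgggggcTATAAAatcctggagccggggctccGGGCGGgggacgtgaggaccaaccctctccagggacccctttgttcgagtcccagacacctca
Nes: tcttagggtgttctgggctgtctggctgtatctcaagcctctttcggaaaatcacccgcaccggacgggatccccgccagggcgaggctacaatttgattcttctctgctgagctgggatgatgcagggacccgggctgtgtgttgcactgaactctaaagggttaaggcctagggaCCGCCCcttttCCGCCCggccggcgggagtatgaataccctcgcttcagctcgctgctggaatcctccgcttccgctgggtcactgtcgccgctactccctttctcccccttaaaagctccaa
The Map2 window was chr1:66175079-66175378, that of Nes chr3:87970843-87971142, that of Sox1 chr8:12395269-12395568 and that of Gsx2 chr5:75075351-75075650, all on the plus strand. RefSeq start sites need not be the gene starts of GENCODE M21, from which the gene positions below are taken. The Sox1 window begins at 12395269 and the GENCODE gene at 12395295, so most of that window lies inside the gene. A GC box was found in all 4 printed windows, 5 times in Map2, 3 times in Sox1, 2 times in Nes and 1 time in Gsx2. It was found in 6 of the 9 windows of the neural lineage genes, and in 35.7% of 32851 RefSeq windows of the same length. The TATA box stood in the Gsx2 window alone of the 9, and in 13.6% of all windows. The SOX core ATTGT was in 4 of the 9 windows (31% of all), the RBPJ core TGGGAA, read by the Notch effector, in 2 (25.6%), those of Hes5 and Sox1, and the CCAAT box, CCAAT, in 5 (37.4%). The N box CACNAG, a site of Hes-type repressors, was in 2 (42.5%), and the homeodomain core TAATTA in 0 (5.29%). No match overlapped another, and both strands were searched. All 9 windows were richer in CpG than the median window: the ratio of observed to expected CpG ran between 0.575 in Gsx2 and 1.07 in Sox1, against a median of 0.384. Nes, the gene that rose, had a ratio of 0.702, inside the range of the 3 that fell. A match is a description of these letters and not a binding site.

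**Figure D1:**
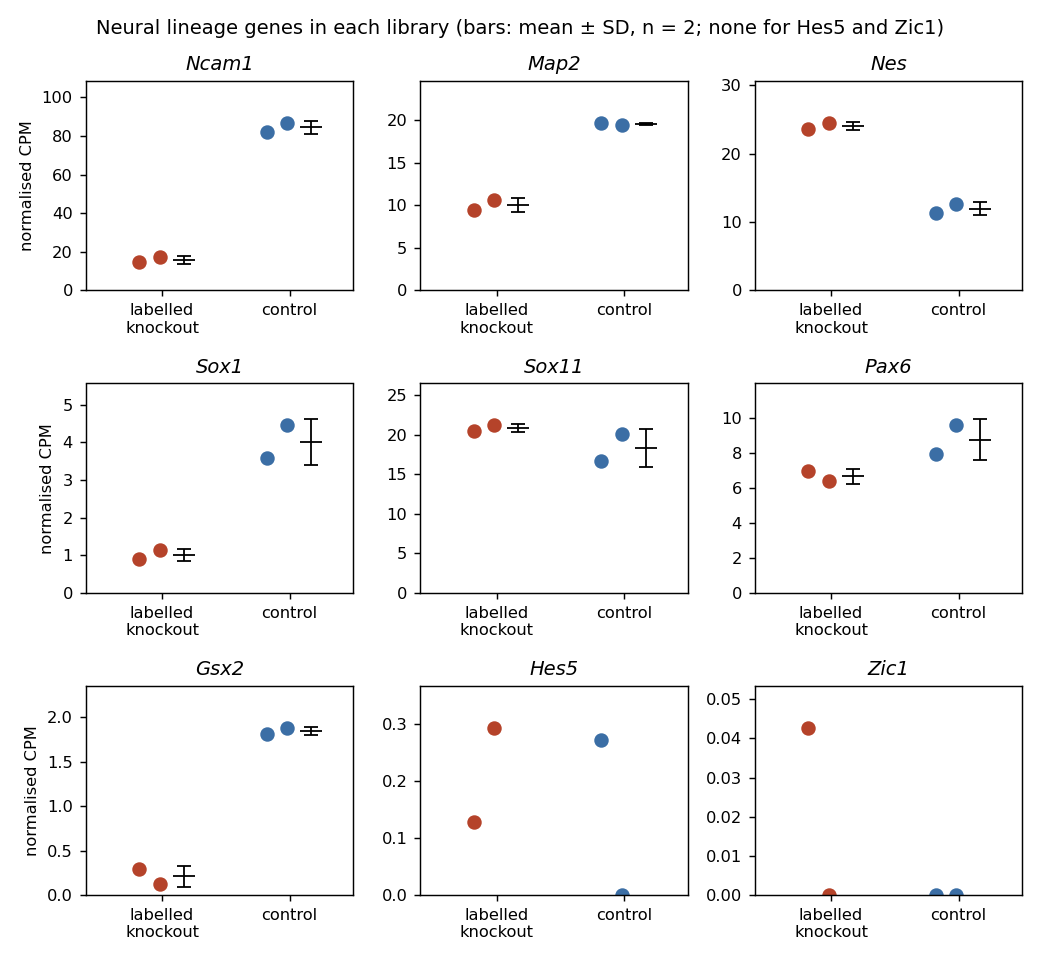
Normalised CPM of each of the 9 genes, 1 panel per gene with its own axis from 0; points are libraries (2 labelled knockout, left, and 2 controls, right), and black bars give mean ± SD over the 2 libraries of a group, except for Hes5 and Zic1, which rest on 16 counts and 1 count in all. Ncam1 had 14.5 and 17.4 CPM in the libraries labelled knockout, against 82.1 and 86.7 CPM in controls, while Nes lay the other way.

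Ncam1 (chromosome 9, 49502136 to 49798925, minus strand, mm10) encodes the neural cell adhesion molecule, an immunoglobulin-domain protein that binds itself between neighbouring cells. It had 340 and 414 counts in the libraries labelled knockout and 1813 and 2124 counts in controls. That is 14.5 and 17.4 CPM in the libraries labelled knockout, against 82.1 and 86.7 CPM in controls, and the pairs lie far apart. The fall was 5.29-fold (log2 fold change -2.40 ± 0.09, SE, n = 2 per group, edgeR adjusted p 2.2e-13). Only 0.366% of tested genes had a lower log2 fold change. Ncam1 alone made up most of the reads of the group in controls: the 9 genes summed to 76.5 and 81.6 CPM in the libraries labelled knockout and to 143.0 and 155.0 CPM in controls. Without Ncam1 the other 8 genes summed to 62.0 and 64.2 CPM in the libraries labelled knockout, against 61.4 and 68.1 CPM in controls, and the groups overlapped.

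Map2 (chromosome 1, 66175273 to 66442583, plus strand) encodes a protein that binds and stabilises microtubules and is a marker of neuronal dendrites. Its level was 9.49 and 10.6 CPM in the libraries labelled knockout and 19.7 and 19.5 CPM in controls. The libraries of a group differed by far less than the groups, and the fall was 1.95-fold (log2 fold change -0.97 ± 0.13, edgeR adjusted p 7.2e-06). Nes (chromosome 3, 87971078 to 87980451, plus strand) encodes nestin, the intermediate filament protein of neural progenitors, which other dividing cells also make. It reached 23.6 and 24.5 CPM in the libraries labelled knockout and 11.3 and 12.6 CPM in controls, so that both libraries labelled knockout were above both controls. The rise was 2.01-fold (log2 fold change 1.00 ± 0.12, edgeR adjusted p 2e-06), the sole rise called among the 7 genes tested.

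Among the transcription factors, Sox1 (chromosome 8, 12395295 to 12400126, plus strand) is the SOXB1 factor whose onset marks neuroectoderm. It had 21 and 27 counts in the libraries labelled knockout, against 79 and 109 counts in controls, or 0.897 and 1.13 CPM in the libraries labelled knockout and 3.58 and 4.45 CPM in controls. Every control exceeded every library labelled knockout, with a 3.94-fold fall (log2 fold change -1.98 ± 0.31, edgeR adjusted p 5.2e-05). Gsx2 (chromosome 5, 75075601 to 75077893, plus strand) encodes a homeodomain factor that patterns the ventral forebrain, and it showed the largest fold of the 7. It had 7 and 3 counts in the libraries labelled knockout and 40 and 46 counts in controls. These counts are 0.299 and 0.126 CPM in the libraries labelled knockout and 1.81 and 1.88 CPM in controls. Gsx2 passed the filter on low counts through the controls alone. A gene that enters this way, low in both libraries labelled knockout, can only come out lower. The log2 fold change was -3.09 ± 0.53 with an edgeR adjusted p of 0.00014, and it was -3.1 with no filter. Its size rests on 10 counts: leaving out knockout replicate 1 gave -3.82 and leaving out knockout replicate 2 gave -2.60, and the ratio of summed counts, controls over libraries labelled knockout, was 8.72 with an exact 95% counting interval of 4.52 to 18.8. Without molecular identifiers on the reads, such intervals speak of counting error alone.

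Sox11 (chromosome 12, 27334264 to 27342574, minus strand), a SOXC factor of young neurons, had 20.5 and 21.2 CPM in the libraries labelled knockout and 16.7 and 20.1 CPM in controls. Although both libraries labelled knockout were above both controls, the gap between the groups was smaller than the gap between the controls, and the test did not call it (log2 fold change 0.18, 95% interval -0.07 to 0.42, edgeR adjusted p 0.273). Pax6 (chromosome 2, 105668900 to 105697364, plus strand), the paired-box factor of eye and forebrain progenitors, measured 6.97 and 6.38 CPM in the libraries labelled knockout, against 7.93 and 9.59 CPM in controls. Its log2 fold change was -0.39 with a 95% interval of -0.75 to -0.04, and the adjusted p was 0.0776 by edgeR, short of the threshold. Neither interval shows that the gene was unchanged.

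Hes5 (chromosome 4, 154960923 to 154962371, plus strand), a repressor that Notch switches on in neural progenitors, had 3 and 7 counts in the libraries labelled knockout and 6 and 0 counts in controls. The groups overlap, and no difference was detectable at this depth: the ratio of summed counts, libraries labelled knockout over controls, was 1.64 with an exact 95% counting interval of 0.542 to 5.51. Zic1 (chromosome 9, 91358058 to 91365810, minus strand), a zinc-finger factor of dorsal neural tissue, had 1 and 0 counts in the libraries labelled knockout and 0 and 0 counts in controls. A count of 0 allows up to 3 counts, which is 0.126 CPM in knockout replicate 2 and 0.136 and 0.122 CPM in controls.

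**Figure D2:**
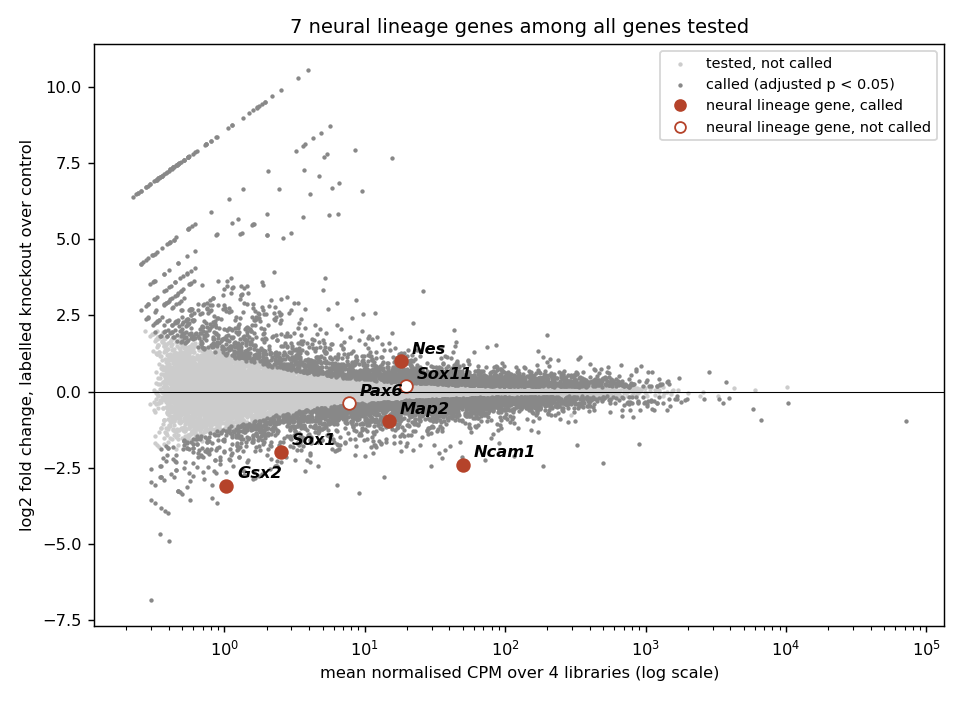
Log2 fold change (libraries labelled knockout over controls) against mean normalised CPM over the 4 libraries (log axis) for all 17482 genes tested; dark grey points passed an adjusted p of 0.05, and red circles are the 7 tested neural lineage genes, filled where called. Ncam1 and Gsx2 lie near the lower edge at -2.40 and -3.09, Sox11 and Pax6 lie near 0, and the slanted rows at the upper left are genes with few or no control counts, whose fitted fold depends on the prior count.

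Levels of different genes can be compared only per length, here as CPM per kilobase of exon in GENCODE M21, which need not be the annotation behind the counts. In controls the order of these levels was Ncam1 (9.74 ± 0.37, SD, n = 2), Sox11 (2.22 ± 0.289), Nes (1.87 ± 0.146), Map2 (1.19 ± 0.0124), Gsx2 (1.11 ± 0.0275), Sox1 (0.83 ± 0.127) and Pax6 (0.749 ± 0.1), with Hes5 at 0.199 and 0 and Zic1 at 0 and 0. Sox1 and Pax6 overlapped there, and the neighbours above them did not. Among the libraries labelled knockout the order was Nes (3.75 ± 0.0974), Sox11 (2.51 ± 0.0549), Ncam1 (1.84 ± 0.233), Map2 (0.61 ± 0.0469), Pax6 (0.571 ± 0.0354), Sox1 (0.21 ± 0.0345), Hes5 (0.0941 and 0.216) and Gsx2 (0.18 and 0.0756). Here Map2 and Pax6 overlapped, as did Hes5 with both Sox1 and Gsx2. Ncam1 was thus in the third place in the libraries labelled knockout and in the first in controls, and Gsx2 overlapped Hes5 in the libraries labelled knockout.

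**Figure D3:**
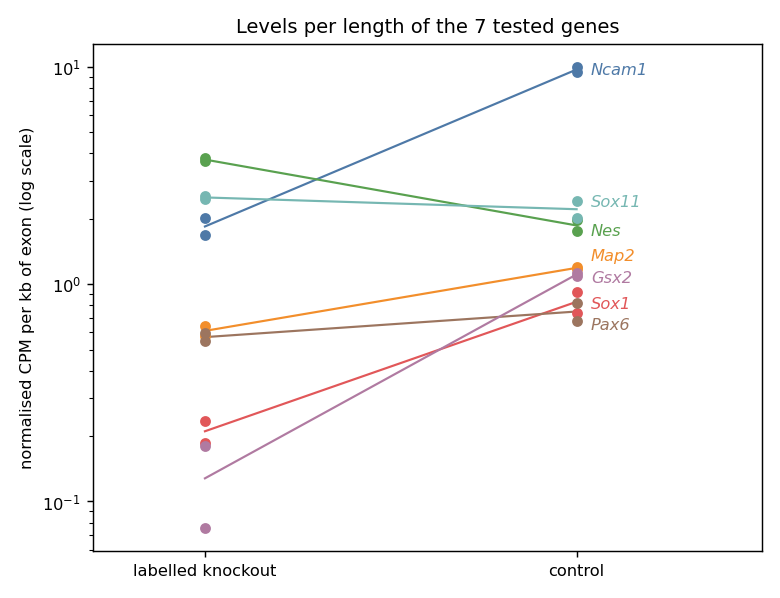
Normalised CPM per kilobase of exon (log axis) of the 7 tested genes; points are the libraries (labelled knockout left, control right), and lines join the group means of a gene. Ncam1 averaged 1.84 in the libraries labelled knockout and 9.74 in controls, while Nes averaged 3.75 and stood above all others in the libraries labelled knockout, against 1.87 in controls.

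Genes beside or across these loci were read as well, because reads from overlapping genes can be shared if strand was not used in counting. Ttc12, a tetratricopeptide gene 15910 bases from Ncam1 on the same strand, also fell, to 8.80 ± 2.23 CPM in the libraries labelled knockout against 19.4 ± 1.30 CPM in controls (log2 fold change -1.14 ± 0.15, edgeR adjusted p 7.4e-06). On the other side of Ncam1, Gm25633 had no count, and the antisense Gm11149 within it had 0 and 0 counts in the libraries labelled knockout and 0 and 2 counts in controls. Sox1ot, which overlaps Sox1 on the same strand, had 4 and 1 counts in the libraries labelled knockout and 10 and 8 counts in controls, too few for the test. Gm33326, a noncoding gene 61292 bases from Sox1, had 12 and 4 counts in the libraries labelled knockout, against 25 and 34 counts in controls (log2 fold change -1.88 ± 0.55, edgeR adjusted p 0.012). That call was lost without knockout replicate 2 (adjusted p 0.129) and without control replicate 2 (0.113).

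The nearest protein-coding genes to Gsx2, named after their values were seen, went both ways. Chic2, 30826 bases away, was at 27.2 ± 1.42 CPM in the libraries labelled knockout and 35.0 ± 0.792 CPM in controls (-0.36 ± 0.10, edgeR adjusted p 0.00582, and 0.0573 without control replicate 1). Pdgfra, the receptor gene 74398 bases away on the other side and a marker of primitive endoderm, rose to 7.22 ± 0.837 CPM in the libraries labelled knockout against 4.22 ± 1.01 CPM in controls (0.78 ± 0.20, adjusted p 0.00566 by edgeR, and 0.087 without control replicate 2). The nearest annotated genes to Gsx2, Gm18593 and Gm2040, had no counts, nor had Gm25239 inside Sox1, Gm8812 beside Map2, Gm3745 beside Nes and Gm45560 beside Sox1. Bcan, a brain proteoglycan gene 7079 bases from Nes, was not called (-0.40 ± 0.35, adjusted p 0.411 by edgeR). Crabp2, a retinoic acid binding protein gene 17701 bases from Nes on the other side and named after its values were seen, had 5.24 ± 1.11 CPM in the libraries labelled knockout and 3.50 ± 0.168 CPM in controls (0.58 ± 0.22, edgeR adjusted p 0.0507). It was below the threshold under 6 alternatives, with adjusted p between 0.00888 and 0.0484. Unc80, 25783 bases from Map2, had 10 and 6 counts in the libraries labelled knockout and 2 and 4 counts in controls. The small RNA genes inside Map2, Gm24729 and Gm25411, and its antisense Gm10558 had at most 4 counts in any library. Pax6os1, antisense to Pax6, and Zic4, which overlaps Zic1 on the opposite strand, had no counts. Gm20421, opposite Hes5, had 0 and 2 counts in the libraries labelled knockout and 6 and 3 counts in controls, a number as small as that of Hes5.

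Relatives of these factors were read as well. Sox2, the SOXB1 factor of both pluripotent and neural cells, had 321.0 and 261.0 CPM in the libraries labelled knockout and 340.0 and 333.0 CPM in controls (log2 fold change -0.21 ± 0.08, edgeR adjusted p 0.0408). That call was lost with library size alone (adjusted p 0.213), with DESeq2 (0.0804) and without knockout replicate 2 (0.334), control replicate 1 (0.154) or control replicate 2 (0.0979). Sox4, a SOXC factor like Sox11, fell to 46.4 ± 2.77 CPM in the libraries labelled knockout against 61.9 ± 2.20 CPM in controls (-0.41 ± 0.08, adjusted p 0.00048 by edgeR). Sox3 and Sox12 were not called (adjusted p 0.672 and 0.803), and the sign of each turned round under at least 1 alternative.

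Of the ZIC family, Zic2, which is active in the epiblast, rose. It reached 20.1 ± 4.42 CPM in the libraries labelled knockout against 12.7 ± 0.667 CPM in controls (0.66 ± 0.14, edgeR adjusted p 0.00119). Zic5 was lower (-0.35 ± 0.12, edgeR adjusted p 0.0238), a call lost with library size alone (0.0806), with DESeq2 (0.0733), without knockout replicate 2 (0.109) and without control replicate 1 (0.238). Gsx1, the closest relative of Gsx2, had 1 and 2 counts in the libraries labelled knockout and 0 and 0 counts in controls. The other PAX genes listed, Pax2, Pax3, Pax5, Pax7 and Pax8, were low, with 59 counts at most in a library; Pax5 and Pax8 were tested and not called, and the others were not tested.

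A wider set of 153 neural genes, in 10 lists that leave the 9 genes out, gives the setting. Of these 107 passed the filter, with 20 called higher and 22 lower, or 18.7% and 20.6%, near the 16.5% and 17.2% of all genes tested. Their median log2 fold change was -0.10, against 0.0035 over all genes. The shares called higher and lower that are given with the lists below stand against the same 16.5% and 17.2%. With scaling by library size alone 25 genes rose and 18 fell with a median of -0.02, and over all genes 3882 were higher and 2215 lower. Without control replicate 1 the calls among these neural genes were 12 higher and 16 lower, and without control replicate 2 they were 13 and 18.

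**Figure D4:**
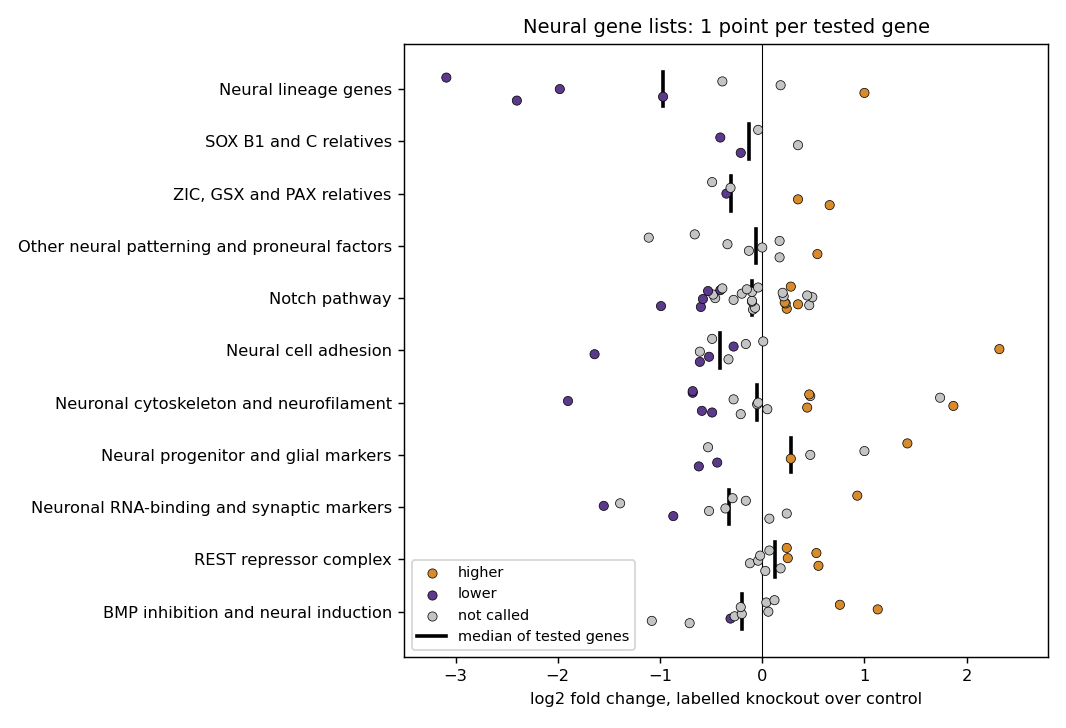
Log2 fold changes (libraries labelled knockout over controls) of the tested genes of the 9 neural lineage genes and of 10 further neural lists, 1 point per gene, coloured by the edgeR call; vertical black bars are medians of the tested genes. The neural lineage genes have a median of -0.97, and the medians of the 10 lists lie between -0.41 (neural cell adhesion) and 0.28 (progenitor and glial markers, a median that turned negative without either knockout replicate or without control replicate 1).

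In the Notch pathway, which controls Hes5, 4 of 27 tested genes rose and 5 fell (median -0.10). These shares, 14.8% and 18.5%, were near the 16.5% and 17.2% of all genes tested. The rises numbered 0 without control replicate 1, 1 without control replicate 2 and 2 without knockout replicate 1, while 5, 5 and 7 genes fell. Dll1, a ligand that neighbouring cells present to Notch, fell to 5.4 ± 0.501 CPM in the libraries labelled knockout against 10.7 ± 0.576 CPM in controls (-0.99 ± 0.16, edgeR adjusted p 1e-04). Notch4, a receptor, fell by 0.60 ± 0.12 on the log2 scale (adjusted p 0.00083 by edgeR), and Numbl, a relative of the Notch inhibitor Numb, by 0.53 ± 0.11 (adjusted p 0.00066). Hes1, the Hes gene of many non-neural cells, was at 10.1 ± 0.263 CPM in the libraries labelled knockout and 15.1 ± 0.0401 CPM in controls (-0.58 ± 0.13, edgeR adjusted p 0.0018); it was picked after its values were seen, as a relative of Hes5. Hes6, a further relative picked likewise, had 4.62 ± 0.657 CPM in the libraries labelled knockout and 6.34 ± 0.26 CPM in controls and was not called (-0.46 ± 0.19, edgeR adjusted p 0.0752).

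Adhesion genes of neural cells, the class of Ncam1, had 1 rise and 4 falls among 10 tested, or 10.0% and 40.0%. Their median was -0.41, and -0.11 without control replicate 1. With no filter on low counts 3 rose and 4 fell, and the median turned to 0.40. Cntn2, an axonal adhesion protein, fell to 8.62 ± 0.438 CPM in the libraries labelled knockout against 26.8 ± 0.00803 CPM in controls (-1.64 ± 0.12, edgeR adjusted p 3.5e-09). Nfasc, the neurofascin gene, fell by 0.52 ± 0.11 on the log2 scale (adjusted p 0.00154 by edgeR). Alcam, an adhesion gene of neural and blood cells, rose to 1.42 ± 0.072 CPM in the libraries labelled knockout against 0.283 ± 0.112 CPM in controls (2.32 ± 0.53, edgeR adjusted p 0.00196). Alcam passed the filter through the libraries labelled knockout alone, so it could only come out higher. The 10 adhesion genes that were not tested together had 49 and 49 counts in the libraries labelled knockout and 11 and 17 counts in controls.

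Cytoskeletal genes of neurons, the class of Map2 and Nes, had 3 rises and 5 falls among 15 tested (median -0.05). With library size alone 5 rose and 5 fell (median 0.04), and without control replicate 2 only 1 rise was left. The rises lost there, named after their values were seen, were those of Map6 (0.44 ± 0.12, edgeR adjusted p 0.00815, and 0.0822 without that library) and Dclk1 (1.87 ± 0.57, adjusted p 0.015, and 0.149 without it). Dclk1 passed the filter on low counts through the libraries labelled knockout alone, so it could only come out higher. Stmn3, a microtubule regulator, fell to 2.48 ± 0.418 CPM in the libraries labelled knockout against 9.28 ± 0.838 CPM in controls (-1.90 ± 0.20, edgeR adjusted p 5.3e-07). Map1b, a microtubule-associated protein gene like Map2, fell by 0.59 ± 0.07 on the log2 scale (adjusted p 2e-06 by edgeR). Vim, whose vimentin forms filaments together with nestin, was at 69.5 ± 2.22 CPM in the libraries labelled knockout and 111.0 ± 0.505 CPM in controls (-0.68 ± 0.07, adjusted p 2.7e-07), the opposite direction to Nes.

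The other neural patterning and proneural factors were largely below the filter: 18 of 26 were not tested. Of the 8 tested 1 rose and 0 fell (12.5% and 0.0%, median -0.06). Otx2, an epiblast and forebrain factor, rose to 19.0 ± 0.419 CPM in the libraries labelled knockout against 13.0 ± 0.677 CPM in controls (0.54 ± 0.12, edgeR adjusted p 0.0016). The 18 untested factors together had 55 and 48 counts in the libraries labelled knockout and 26 and 41 counts in controls. Neurog1, a proneural factor chosen after its values were seen, had 8 and 5 counts in the libraries labelled knockout, against 1 and 0 counts in controls.

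Progenitor and glial markers had 2 rises and 2 falls among 7 tested (28.6% each, median 0.28). The median turned to -0.13 without knockout replicate 1, to -0.10 without knockout replicate 2 and to -0.12 without control replicate 1, and in the last 2 cases no rise was left. Msi1, an RNA-binding protein of neural progenitors, fell to 34.2 ± 0.317 CPM in the libraries labelled knockout against 52.6 ± 1.07 CPM in controls (-0.62 ± 0.08, edgeR adjusted p 9.6e-06). Prom1 was lower (-0.44 ± 0.13, adjusted p 0.0116 by edgeR, and 0.124 without control replicate 2), and Cdh4, a cadherin gene, higher (1.42 ± 0.43, adjusted p 0.0133, and 0.0907 without knockout replicate 2 and 0.112 without control replicate 1). The other rise, of the glutamate transporter gene Slc1a3, named after its values were seen, was 0.28 ± 0.10 (edgeR adjusted p 0.0274), and its adjusted p was 0.068 with DESeq2, 0.113 without knockout replicate 2 and 0.35 without control replicate 1. Neuronal RNA-binding and synaptic markers had 1 rise and 2 falls among 10 tested (median -0.33). Elavl3, of the neuronal Hu proteins, fell to 7.22 ± 0.238 CPM in the libraries labelled knockout against 13.2 ± 0.51 CPM in controls (-0.87 ± 0.15, edgeR adjusted p 9.9e-05). Nova1, a neuronal splicing factor, rose by 0.93 ± 0.20 on the log2 scale (adjusted p 0.00116 by edgeR). Snap25 passed the filter on low counts through the controls alone, so it could only come out lower. Snap25, a synaptic fusion protein, was lower (-1.55 ± 0.55, edgeR adjusted p 0.0352), a call lost with DESeq2 (0.141) and without any 1 of the 4 libraries (0.118 to 0.306).

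REST is a repressor that keeps neuronal genes off outside neurons, and it works with CoREST and Sin3 complexes. Of its 10 listed genes, all tested, 4 rose and 0 fell (median 0.13), and 2 rose without control replicate 1, where Sin3a, named after its values were seen, was lost with Ehmt2 (edgeR adjusted p 0.143, against 0.00996 with all libraries). With all libraries the rises were 40.0% of the list, against 16.5% of all genes tested. Rcor2, a CoREST gene, rose to 102.0 ± 4.35 CPM in the libraries labelled knockout against 69.6 ± 0.35 CPM in controls (0.55 ± 0.07, edgeR adjusted p 5e-06). The deacetylase gene Hdac1 rose by 0.53 ± 0.07 on the log2 scale (edgeR adjusted p 1.4e-05). Ehmt2, a histone methyltransferase gene, was higher (0.24 ± 0.07, edgeR adjusted p 0.00936, and 0.22 without control replicate 1 and 0.0558 without control replicate 2). Rest itself, picked after its values were seen, was at 728.0 ± 1.15 CPM in the libraries labelled knockout and 712.0 ± 21.1 CPM in controls (0.03 ± 0.06, adjusted p 0.707 by edgeR).

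BMP signals hold back neural fate, and antagonists such as Nog, Chrd and Fst release it. In this list 2 of 11 tested genes rose and 1 fell, or 18.2% and 9.09%. The median was -0.20, and 0.07 without knockout replicate 2. Of the BMP-responsive genes listed, Id1 (-0.20 ± 0.10), Id2 (0.06 ± 0.11), Id4 (-0.21 ± 0.22) and Smad7 (0.04 ± 0.07) were not called. Smad6 and Id3 were higher, by 0.76 ± 0.19 and 1.13 ± 0.34 on the log2 scale (edgeR adjusted p 0.00408 and 0.0146). The first call was lost without control replicate 1 (adjusted p 0.0777), the second with DESeq2 (0.0529) and without control replicate 2 (0.0781). Bmp4, a ligand, was lower (-0.31 ± 0.11, edgeR adjusted p 0.0295), which was lost with library size alone (0.107), with DESeq2 (0.0905) and without knockout replicate 2 (0.0564) or control replicate 1 (0.289).

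For each called gene the 3 tested genes with the most alike levels were found, by the distance between log2 CPM over the 4 libraries, among 13541 candidates. Nearest to Ncam1 were Sfrp1, a secreted Wnt antagonist (distance 0.41), Mirg, a noncoding RNA of the Dlk1-Dio3 region (0.70), and Ntn1, the axon guidance gene netrin-1 (0.87). Sfrp1 had 19.1 and 16.9 CPM in the libraries labelled knockout and 79.9 and 79.6 CPM in controls. For Map2 they were Unc13a, of synaptic vesicle priming (0.20), the cytochrome gene Cyp4f13 (0.21) and the sodium channel gene Scn8a (0.21), and for Nes the methyltransferase gene Smyd2 (0.15), the serum response factor gene Srf (0.16) and the retinoid receptor gene Rxra (0.26). Genes near Sox1 were Gcnt4 (0.61) and the chemokine receptor gene Cxcr4 (0.67), and nearest to Gsx2 were the microRNA gene Mir1188 (0.62), the calcium channel gene Cacna1c (0.63) and the sperm channel gene Catsperz (0.78). With 4 libraries in 2 groups, such likeness is mostly a like level and a like difference between the groups.

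Markers of cell types were read beside these results. Over all genes tested, 16.5% were called higher and 17.2% lower. Of 9 pluripotent cell markers, all tested, 2 rose and 6 fell (median -0.35), and their summed level was 3450 and 3420 CPM in the libraries labelled knockout, against 4520 and 4590 CPM in controls; none was at 0. The rises, of Nanog (0.17 ± 0.06, edgeR adjusted p 0.0393) and Utf1 (0.26 ± 0.09, adjusted p 0.0351), were both lost without control replicate 1 (0.207 and 0.358). Nanog was also lost without control replicate 2 (adjusted p 0.356 by edgeR), and Utf1 with DESeq2 (0.0741) and without knockout replicate 2 (0.45), while the 6 falls were called under every alternative. Primitive endoderm markers had 6 rises and 0 falls among 8 tested (median 1.36), with sums of 280.0 and 281.0 CPM in the libraries labelled knockout and 220.0 and 213.0 CPM in controls. Gata6, their regulator, was at 4.32 ± 0.354 CPM in the libraries labelled knockout and 0.723 ± 0.189 CPM in controls (2.56 ± 0.32, edgeR adjusted p 4.3e-06). Trophoblast markers had 2 rises among 4 tested of 6 and summed to 129.0 and 136.0 CPM in the libraries labelled knockout and 83.1 and 82.1 CPM in controls. Tfap2c made up most of these sums, at 92.6 ± 2.37 CPM in the libraries labelled knockout and 52.7 ± 1.55 CPM in controls. Cdx2 had 3 and 1 counts and Elf5 2 and 1 counts in the libraries labelled knockout, too few to tell from their 0 in both controls. Mesendoderm markers had 1 rise, of Kdr, among 2 tested of 6 and summed to 2.61 and 1.85 CPM in the libraries labelled knockout and 1.45 and 1.26 CPM in controls; the Kdr call was lost with DESeq2 (adjusted p 0.122) and without any 1 of the 4 libraries (0.0585 to 0.315). Kdr passed the filter on low counts through the libraries labelled knockout alone, so it could only come out higher. Feeder fibroblast markers had no call among 2 tested of 5 and summed to 15.9 and 19.5 CPM in the libraries labelled knockout and 19.0 and 17.9 CPM in controls, with Postn at 0 in all 4 libraries. The part of these cell types in the levels of the neural genes was not tested. Of the 153 further neural genes, 107 passed the filter and 5 had no count in any library. Those at 0 include Dcx, of migrating neurons, Fabp7, of radial glia, and Olig2, of motor neuron and oligodendrocyte progenitors. Other genes of these lists were well above 0: Stmn2 averaged 152.0 CPM in the libraries labelled knockout and 156.0 CPM in controls. Tubb3 averaged 32.9 CPM in the libraries labelled knockout and 33.9 CPM in controls.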

How the data were processed

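The submitters' processing notes name cutadapt, HISAT2, featureCounts and mm10. Versions, annotation, strand setting and handling of multi-mapping reads: not given in the sources used here. What the authors deposited is a table of whole-number counts by gene symbol, not normalized by the authors as far as the file shows, for 55353 symbols, of which 26633 had 0 counts in all 4 libraries. The columns carry OK where the titles carry KO and were matched by name and number.

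In R 4.3.3, a filter on low counts (edgeR 4.0.16, filterByExpr with the groups) left 17482 genes. It asked for about 10 counts, scaled for depth, in as many libraries as a group holds, and 15 in total. A tested gene can thus be low in 1 group, such as Gsx2 and Snap25 in the libraries labelled knockout or Alcam, Dclk1 and Kdr in controls. Libraries were scaled by TMM and compared with edgeR's quasi-likelihood test (2-sided, no covariate, prior count 0.125, 2 residual degrees of freedom), adjusted by Benjamini-Hochberg over all genes tested, at 0.05. The standard error is the log2 fold change divided by the square root of F. DESeq2 1.42.0 and limma-voom (limma 3.58.1) were alternatives, with other scalings and filters, each library left out and the replicate number as a block. The script was tested on simulated data. Chi-square per degree of freedom over genes with at least 20 counts in a pair together was 11.5 between the libraries labelled knockout and 3.37 between controls, so neither pair repeats 1 library. Positions and exon lengths are from GENCODE M21 (mm10), promoters from RefSeq on GRCm38.p6.

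The 9 genes, the lists and the rules were chosen with earlier results of these data known. Named are the 9 genes, Ssrp1, the SOX, ZIC, GSX and PAX relatives, of each other neural list up to 3 called genes with the smallest adjusted p, the neighbours of called genes and the 3 genes most like each called gene (log2 CPM with prior count 2, predicted and pseudogene names left out). Any other gene was named after its values were seen. Some genes that this rule names are not reported here.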

Additional observations from a re-analysis of the deposited data

How the results depend on the processing

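The calls on the 7 tested genes, 1 higher and 4 lower, were the same under all 12 alternatives. Over these, log2 fold changes lay between -2.54 and -2.28 for Ncam1, -1.05 and -0.88 for Map2, 0.92 and 1.09 for Nes, -2.16 and -1.81 for Sox1, and -3.82 and -2.60 for Gsx2. Adjusted p ran between 0.0525 and 0.462 for Pax6 and between 0.0981 and 0.891 for Sox11, so that neither was called in any of them. The number of genes higher over the whole table was 2877, between 1915 (without control replicate 1) and 2995 with a library left out, and the number lower was 3000, between 2105 and 3244. DESeq2 called 2225 higher and 2198 lower, and library size alone 3882 and 2215; no gene of the 9 changed its call with either. The replicate numbers are shared by the groups, but nothing says that they pair samples, and the correlation of the same-numbered deviations was 0.00782. With the replicate number as a block, 3072 genes were higher and 3216 lower, and the 9 genes kept 1 rise and 4 falls. Depth limits Hes5 and Zic1, with 16 counts and 1 count over the 4 libraries, and the size of the fall of Gsx2, which rests on 10 counts. With 2 libraries a group, a lone library left in a group is assumed to vary like the other group.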
